A study of Rattus norvegicus with 12 samples.

Results

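H5D cells, a rat line that came from a hepatocellular carcinoma induced with an azo dye in a Fischer rat, were compared after 24 hr with 50 nM rapamycin or with the DMSO vehicle. The members are the 6 H5D arrays of the 12 in the series, 3 titled as rapamycin and 3 titled as control, and the other 6 arrays are those of a second line, GN5. Both H5D groups grew in Waymouth MB 752/1 medium with fetal bovine serum, and the methods describe triplicate plates of this 1 line, which is the spread that the p-values rest on. GN5, a chemically transformed derivative of a rat liver epithelial line, was used here only where the H5D response was set against it, and it had the same dose, time and vehicle in another medium, DMEM/F12.

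Rapamycin binds an FK506-binding protein, and the complex inhibits the kinase mTOR, which senses amino acids and growth factors and promotes protein synthesis, ribosome production and anabolic metabolism. One output of the mTOR complex that rapamycin blocks is the transcription factor ATF4, which drives genes for amino acid synthesis, amino acid uptake and aminoacyl-tRNA synthetases. In liver cells the pathway is known for coupling growth and glucose metabolism to nutrient supply, and the antiproliferative action of rapamycin varies widely between hepatic lines.

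The label of a hepatocellular line was checked against marker genes first. Of 10 hepatocyte markers on the array, 9 were undetected on all 6 H5D arrays, including albumin (Alb), transthyretin (Ttr), apolipoprotein B (Apob), alpha-fetoprotein (Afp) and the hepatocyte transcription factor Hnf4a. Transferrin (Tf) was the exception, averaging 11.38 on the vehicle arrays and 11.93 on the rapamycin arrays (log2 level). The keratins Krt7, Krt8 and Krt19, osteopontin (Spp1), vimentin (Vim), Pdgfra and Cd14 were detected on all 6 arrays, whereas Cdh1, Epcam, Prom1, Col1a1, Col3a1, the pan-leukocyte gene Ptprc and the endothelial genes Cdh5 and Vwf were detected on none. Apart from Tf, the hepatocyte markers were thus not above background on the H5D arrays. The summed linear signal of the hepatocyte list, which Tf dominated, lay between 2790 and 3090 with vehicle and between 3650 and 4780 with rapamycin. That of the fibroblast list, which Vim dominated, lay between 7330 and 10500 and between 8970 and 9610. The epithelial list, carried by Krt8, gave 4910 to 5330 and 6790 to 7020. The biliary and progenitor list gave 12000 to 13600 and 13400 to 15100. The part of these sums in the results below was not tested.

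On each array 7902 to 8483 of the 22523 probes were detected, 35.1% to 37.7%. The counts fell into a higher and a lower set, each with arrays of both treatments. Vehicle replicates 1 and 3 and rapamycin replicate 2 had 8453, 8462 and 8483 detected probes. Vehicle replicate 2 and rapamycin replicates 1 and 3 had 7950, 7902 and 7944. The part of this split in the results was not tested. The median signal of detected probes was 3.21 to 3.54 times that of undetected probes on the vehicle arrays and 3.9 to 4.3 times on the rapamycin arrays, so this measure of contrast did not overlap between the groups, and its part in the results was not tested. Vehicle replicate 2 stood apart, with the lowest raw signal (14.9 against 42.3 to 49.9 on the other H5D arrays) and the largest median distance from its group (0.173 on the log2 scale). Pearson correlations across the tested probes were 0.9865 to 0.9941 within vehicle, 0.9895 to 0.995 within rapamycin and 0.9784 to 0.9916 between the groups.

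Few probes passed the test with 3 arrays per group, and most of their fitted changes lay below 2-fold. Of 7895 probes tested, 57 passed an adjusted p below 0.05 (limma) and were thereby called, or 0.722%, and 25 of them were higher with rapamycin (0.317%) and 32 lower (0.405%). They named 49 genes, 21 upregulated and 28 downregulated, while 7 probes had no gene symbol. The fitted change was at least 2-fold for 8 probes, 5 higher and 3 lower, although 1 of these, Slc7a3, was undetected with rapamycin and has only a bound of 1.78-fold. Every other call lay below 2-fold, down to a log2 difference of 0.52. The rapamycin and vehicle arrays did not overlap for any of the 57, but the same was true of 855 probes that were higher (10.8% of those tested) and 969 that were lower (12.3%), so that the absence of overlap alone is common in these 6 arrays. At an unadjusted p below 0.05 there were 1317 probes, 16.7% of those tested. Because whole cultures were measured, fewer cells that express a gene and less RNA per cell cannot be told apart.

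How many probes passed depended on single arrays. On all 6 arrays the methods' t-test with adjustment called 6, of which 0 were higher and 6 lower. Without rapamycin replicate 2 none passed by limma, against 830 at an unadjusted p below 0.05. Without vehicle replicate 1, 2 or 3 the number was 3, 42 or 31, and without rapamycin replicate 1 or 3 it was 4 or 18. All 57 kept their direction in each of these fits and none of their log2 fold changes moved by over 1.5 times in these 6 fits. The direction also held on the authors' normalised values, without background correction and under a common median, but there 15, 15 and 8 of the 57 changes moved by over 1.5 times. Ccn2 and Nupr1 passed in 5 of the 6 fits with an array left out, and 18 of the 57 passed in none of them. When the variance was estimated over all 12 arrays of the series, 290 probes passed (3.67%), including all of the 57. Scaling each array to a common median in place of quantile normalisation took the middle of the log2 fold changes (their median over the tested probes) from -0.011 to 0.172, and it gave 164 calls of which 95.1% were higher, against 43.9% of the 57. Directions below are therefore relative to the bulk of the genes.

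**Figure D1:**
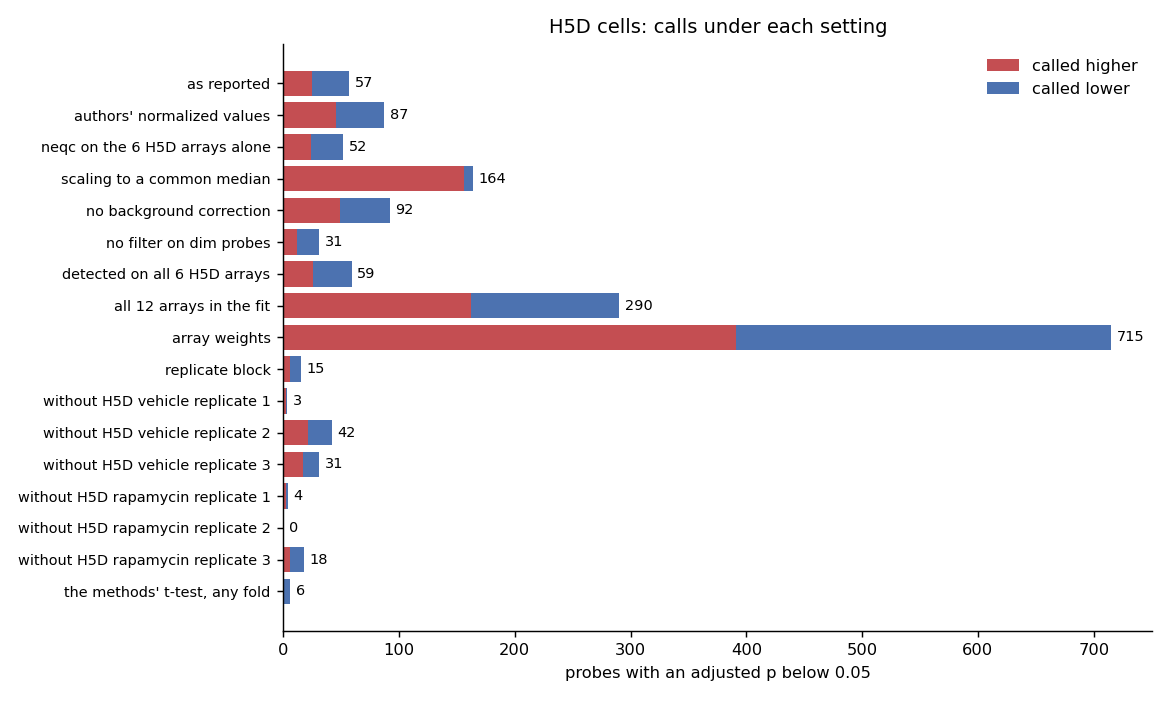
Horizontal bars give the number of H5D probes with an adjusted p below 0.05 under each setting, split into higher (red) and lower (blue) with rapamycin, and start at 0. The reported setting has 57 calls, leaving out an array gives 0 to 42, and weighting the arrays by their quality gives 715.

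**Figure D2:**
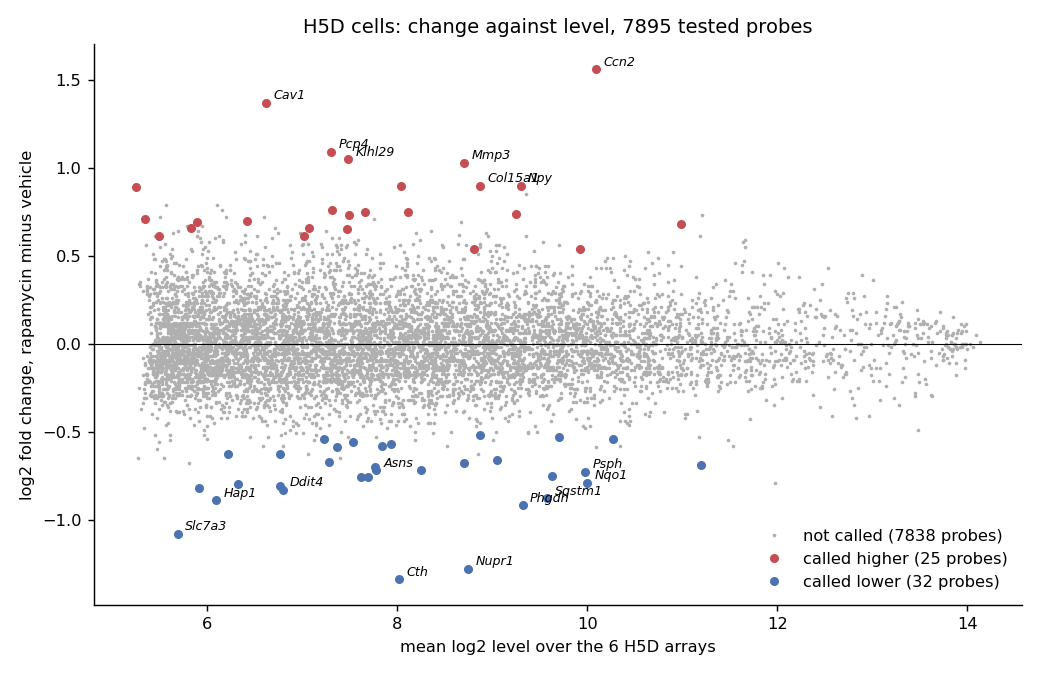
Each point is 1 of the 7895 tested probes, placed by its mean log2 level over the 6 H5D arrays and its log2 fold change (rapamycin minus vehicle). The 25 probes called higher are red, the 32 called lower are blue, and the calls extend over most of the range of levels.

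The gene with the largest rise was Ccn2, connective tissue growth factor, a secreted matricellular protein and a classical target of the coactivator YAP with TEAD factors. Its log2 levels were 9.41, 9.48 and 9.05 with vehicle and 10.92, 10.91 and 10.79 with rapamycin. All 3 rapamycin arrays were more than a whole log2 unit above every vehicle array, a rise of 2.94-fold (log2 fold change 1.56, SE 0.13, adjusted p = 0.00356). Caveolin (Cav1), the coat protein of caveolae, followed with 6.24, 5.61 and 5.99 with vehicle against 7.52, 7.27 and 7.15 with rapamycin (2.58-fold, SE 0.166 on the log2 scale, adjusted p = 0.00816). A dimmer second Cav1 probe rose as well, by 0.69 on the log2 scale (adjusted p = 0.0429), so both probes of this gene moved the same way. Tissue factor (F3), the cell-surface initiator of coagulation, measured 10.6, 10.62 and 10.7 with vehicle and 11.35, 11.4 and 11.23 with rapamycin (1.61-fold, adjusted p = 0.0197). The endothelin precursor Edn1, which gives a vasoconstrictor and mitogenic peptide, measured 7.15, 6.97 and 7.27 against 8.01, 7.81 and 7.76 (1.66-fold, adjusted p = 0.0321).

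These 4 genes belong to a list of 34 YAP and TEAD targets, of which 19 were tested. None of the 19 fell, 4 rose and 15 did not pass, and their median log2 fold change was 0.38 against -0.01 over the 5889 tested genes. Over these 5889 genes 0.815% passed, and 2837 changes were positive and 3052 negative. The members that did not pass included Cavin1, a partner of caveolin (0.61, adjusted p = 0.13), Asap1 (0.54, adjusted p = 0.0887), Cav2 (0.42, adjusted p = 0.0924) and the binding protein Igfbp3 at the opposite end (-0.58, adjusted p = 0.0985). Ankrd1 and Ccn1, well-known members of this list, were at 0.08 and 0.16. The median stayed above 0 under a common median (0.58, or 0.41 above the median of all tested probes) and without vehicle replicate 2 (0.31). With the variance taken from all 12 arrays, 6 members were higher and 1 was lower.

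The promoter of Ccn2 is shown because the list is built around TEAD binding. TEAD factors recognise the letters GGAATG, which were searched on both strands of RefSeq promoter windows of GRCr8, 250 bases before to 50 bases after the start site. In the Ccn2 window, chr1:22624565-22624864 on the minus strand, the letters occur 3 times, starting 166, 101 and 92 bases upstream of the start site, and are written in capitals.
Ccn2: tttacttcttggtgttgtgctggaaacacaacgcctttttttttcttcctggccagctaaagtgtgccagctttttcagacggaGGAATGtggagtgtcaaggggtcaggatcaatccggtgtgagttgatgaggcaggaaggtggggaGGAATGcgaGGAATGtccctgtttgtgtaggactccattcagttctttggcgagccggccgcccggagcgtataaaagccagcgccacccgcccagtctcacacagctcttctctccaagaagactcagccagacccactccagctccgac
Of the 18 upregulated genes with a promoter in the table, 4 held the letters (Ccn2, Npy, Pcp4 and Tinf2), or 22.2%, and none of the 23 downregulated genes did. The share was 11.5% among the 4988 tested genes with a promoter and 15.0% among all 27457. Among tested YAP and TEAD targets it was 26.7% (4 of 15). It was higher still, 33.3% (8 of 24), in a list of glutathione genes and targets of the redox factor NRF2, whose median log2 fold change was -0.14. Cav1, F3 and Edn1 were not among the genes with a match, F3 having no window in the table, and a match of these letters is a description and not a binding site.

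Matrix genes formed a further part of the rises. Stromelysin (Mmp3), a secreted protease of matrix proteins, measured 8.42, 7.9 and 8.26 with vehicle and 9.04, 9.21 and 9.43 with rapamycin, a rise of 2.04-fold (adjusted p = 0.021). Its lowest rapamycin array exceeded its highest vehicle array by 0.62. Mmp16, a membrane-bound member of the same protease family, rose 1.52-fold (adjusted p = 0.0442), and the secreted serine protease Htra1 rose 1.46-fold (adjusted p = 0.0442). Of 18 tested members of the list of matrix proteases and inhibitors, which does not hold Htra1, 2 rose and none fell (median 0.11). Among 18 tested collagen and elastic fibre genes, Col15a1 and Col18a1, the basement membrane collagens that carry endostatin-type domains, rose 1.86-fold and 1.45-fold (adjusted p = 0.0197 and 0.0442). The 16 others did not pass, Col6a1 at 0.63 and Col8a1 at 0.51 being the nearest, and the median of the list was 0.02. Over all 5889 tested genes 0.815% passed and the median was -0.01.

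Peptides and signalling molecules were found on both sides. Neuropeptide Y (Npy) measured 8.93, 8.78 and 8.85 with vehicle and 9.9, 9.69 and 9.67 with rapamycin (1.87-fold, adjusted p = 0.00816). The cytokine Tnfsf12, known as TWEAK, rose 1.58-fold (adjusted p = 0.0379). The immediate early transcription factor Egr1 was at 7.34, 7.23 and 7.29 against 7.96, 8.17 and 8.0 (1.68-fold, adjusted p = 0.0155), while the other 25 tested immediate early and MAPK feedback genes did not pass and the list had a median of 0.06. In the opposite direction the ligand Wnt16 measured 7.97, 7.97 and 8.06 with vehicle and 7.2, 7.26 and 7.25 with rapamycin (1.7-fold lower, adjusted p = 0.00871). Wnt16 was the 1 call among 12 tested genes of the Wnt list, and Pygo2, a nuclear component of that pathway outside the list, was higher by 0.7 on the log2 scale (adjusted p = 0.0334). Of 18 tested growth factor and vasoactive peptide genes 2 rose (Npy and Edn1) and 1 fell (Wnt16).

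The remaining rises did not share a list. The calmodulin-binding peptide Pcp4 measured 6.84, 6.89 and 6.55 with vehicle and 7.81, 7.82 and 7.93 with rapamycin (2.13-fold, adjusted p = 0.00749). The kelch-family gene Klhl29 rose 2.07-fold (7.12, 6.66 and 7.11 against 8.33, 7.92 and 7.79, adjusted p = 0.0321). Prolidase (Pepd), which splits proline-containing dipeptides, rose 1.86-fold, from 7.73, 7.26 and 7.78 to 8.56, 8.44 and 8.46 (adjusted p = 0.0308). In Klhl29 and Pepd vehicle replicate 2 was the lowest array, as it was, among others, in Cav1, Mmp3, Col15a1 and Zfp523, and the zinc finger gene Zfp523 rose 1.7-fold (adjusted p = 0.0224). The connexin Gja5, the shelterin component Tinf2 and the F-box protein Fbxo4 rose 1.58-fold, 1.57-fold and 1.53-fold, and Fbxo4 was detected on 1 of 3 vehicle arrays. Tmem200a was detected on no vehicle array and was at least 1.28-fold higher with rapamycin (adjusted p = 0.0408), a bound set by the lowest signal among detected probes.

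**Figure D3:**
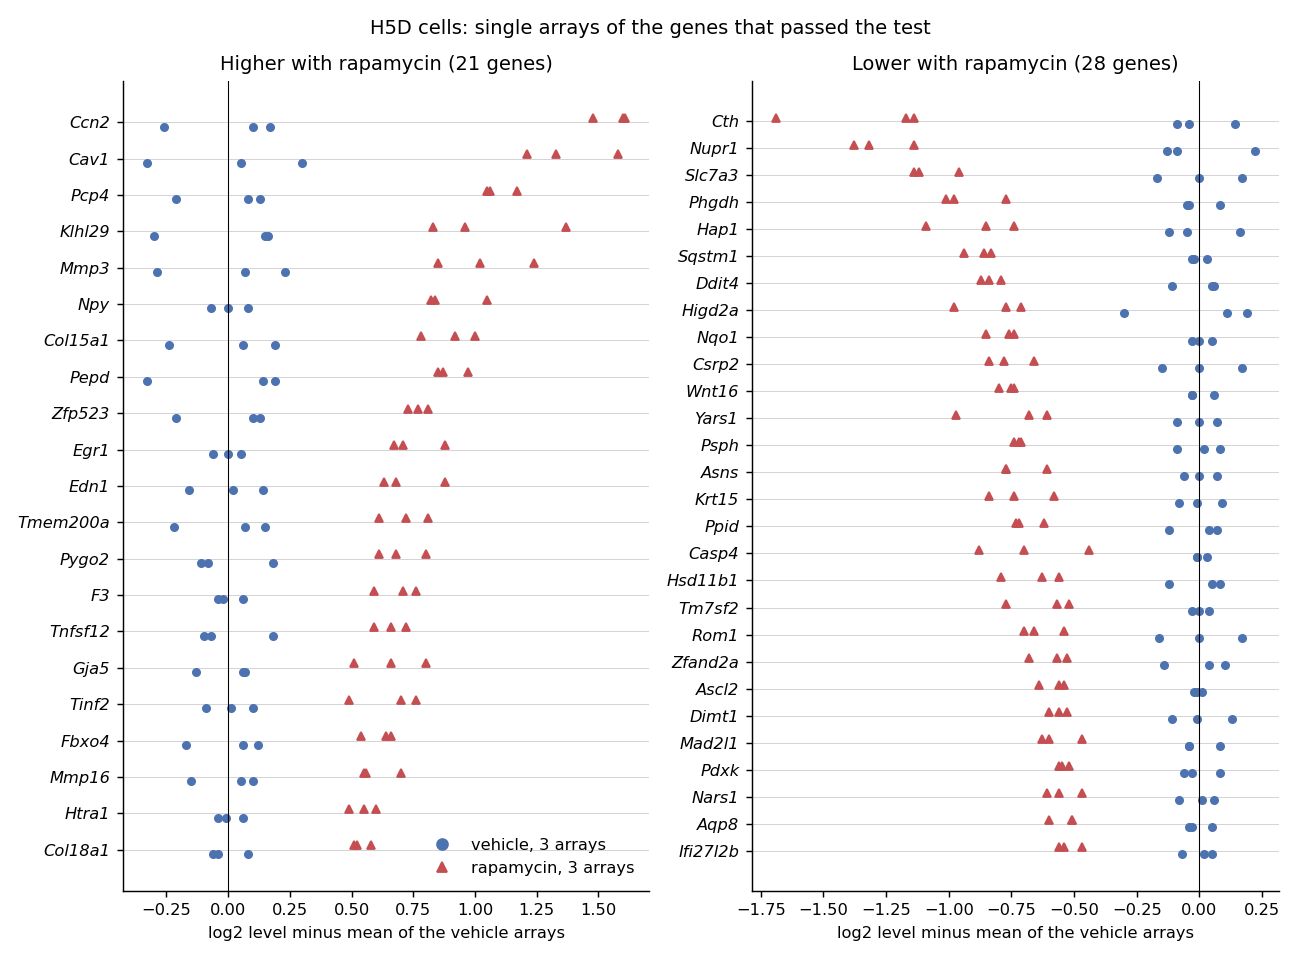
For each of the 49 genes that passed, the 3 vehicle arrays (blue circles) and the 3 rapamycin arrays (red triangles) are drawn as log2 level minus the vehicle mean, with the 21 rises on the left and the 28 falls on the right. Where a gene had 2 called probes the one with the larger change is drawn, and in no gene do the groups overlap.

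Genes of amino acid supply were among those that fell. Cystathionine gamma-lyase (Cth), which makes cysteine by transsulfuration, measured 8.6, 8.83 and 8.65 with vehicle and 7.0, 7.52 and 7.55 with rapamycin, a fall of 2.53-fold (log2 fold change -1.34, SE 0.155, adjusted p = 0.00816). The stress-induced chromatin cofactor Nupr1 measured 9.3, 9.61 and 9.26 against 8.07, 8.01 and 8.25 (2.43-fold lower, adjusted p = 0.00749). In both, the highest rapamycin array lay just over a whole log2 unit below the lowest vehicle array. Slc7a3, a transporter of cationic amino acids, measured 6.4, 6.06 and 6.23 with vehicle and was undetected on all 3 rapamycin arrays, at least 1.78-fold lower (adjusted p = 0.00749). The entry enzyme of serine synthesis, Phgdh, fell from 9.74, 9.73 and 9.86 to 8.77, 9.01 and 8.8 (1.89-fold, adjusted p = 0.00816), and the last enzyme of that route, Psph, from 10.36, 10.25 and 10.42 to 9.63, 9.62 and 9.6 (1.65-fold, adjusted p = 0.0141). Asparagine synthetase (Asns) fell from 8.08, 8.14 and 8.21 to 7.37, 7.53 and 7.37 (1.64-fold, adjusted p = 0.0181). The 3 rapamycin arrays of Psph differed by 0.03 at most, the tightest of these groups.

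These genes and Ddit4, Nars1 and others form a list of 38 ATF4 targets, of which 25 were tested. Of the 25, 8 fell, none rose and 17 did not pass, where 0.815% of all 5889 tested genes passed. The median log2 fold change of the list was -0.45 against -0.01 for all tested genes. Negative values were found in 23 of the 25, against 3052 of the 5889. The median was -0.31 without vehicle replicate 2 and -0.24 under a common median, where the bulk of genes stood at 0.172. Below the threshold lay Gdf15 (-0.65, adjusted p = 0.072), Ddit3, the stress factor CHOP (-0.63, adjusted p = 0.0746), and Atf4 itself (-0.59, adjusted p = 0.0881). The large neutral amino acid transporter Slc7a5 was at -0.31 and its partner Slc3a2 at -0.26 (adjusted p = 0.287 and 0.241), and Slc7a3 was the 1 gene to pass among 16 tested amino acid transporters (median -0.12). With the variance taken from all 12 arrays, 11 of the 25 were lower.

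Enzymes of serine, glycine and one-carbon metabolism showed the same 2 calls, Phgdh and Psph, among 11 tested genes, all 11 with a negative log2 fold change (median -0.27). Mitochondrial serine hydroxymethyltransferase (Shmt2) was at -0.37 with an adjusted p of 0.495. Among 17 tested enzymes of asparagine, cysteine, proline and arginine metabolism Cth and Asns fell and Pepd rose, with cystathionine beta-synthase (Cbs), the enzyme before Cth, at -0.47 (adjusted p = 0.0848). Of 16 tested cytosolic tRNA synthetases 2 fell and none rose (median -0.27). These were the tyrosyl enzyme Yars1, from 10.0, 10.07 and 9.91 to 9.03, 9.32 and 9.39 (1.68-fold, adjusted p = 0.0308), and the asparaginyl enzyme Nars1, from 10.6, 10.46 and 10.55 to 10.07, 9.98 and 9.93 (1.46-fold, adjusted p = 0.0467). The alanyl enzyme Aars1 was at -0.58 and just outside (adjusted p = 0.054), and none of the 8 tested mitochondrial tRNA synthetases passed (median 0.06). The vitamin B6 kinase Pdxk, which supplies the cofactor of transsulfuration and serine enzymes, fell 1.45-fold (adjusted p = 0.0442).

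Promoters of the falling genes are shown because ATF4 binds, with C/EBP partners, an element with the letters TGATGNAA, where N is any base. Searched on both strands of the same windows, the letters were found in 4 of 23 downregulated genes with a promoter, or 17.4%, namely Nupr1, Nars1, Yars1 and the water channel Aqp8, and in none of 18 upregulated genes. The share was 1.98% among the tested genes with a promoter (99 of 4988) and 4.16% among all 27457. In all 4 the bases found were TGATGCAA, read on the gene's own strand except in Nupr1, where it lies on the opposite strand and appears as its reverse complement. The match began 55 bases upstream of the start site in Nupr1 (chr1:190645852-190646151, minus strand), 14 upstream in Nars1 (chr18:60275733-60276032, minus strand), 157 upstream in Aqp8 (chr1:187424193-187424492, plus strand) and at base 39 after the start in Yars1 (chr5:146819913-146820212, plus strand). Capitals mark it in each window.
Nupr1: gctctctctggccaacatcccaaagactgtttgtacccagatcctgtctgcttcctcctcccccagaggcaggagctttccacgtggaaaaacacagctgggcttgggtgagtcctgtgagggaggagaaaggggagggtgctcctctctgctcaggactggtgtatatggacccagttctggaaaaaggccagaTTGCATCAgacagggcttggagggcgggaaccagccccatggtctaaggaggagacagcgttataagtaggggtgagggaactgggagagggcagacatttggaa
Nars1: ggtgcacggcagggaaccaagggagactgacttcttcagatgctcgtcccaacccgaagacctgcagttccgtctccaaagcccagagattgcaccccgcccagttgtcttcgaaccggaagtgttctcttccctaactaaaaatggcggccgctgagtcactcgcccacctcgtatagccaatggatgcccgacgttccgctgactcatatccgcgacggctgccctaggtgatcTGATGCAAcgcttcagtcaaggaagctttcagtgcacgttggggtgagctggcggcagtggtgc
Yars1: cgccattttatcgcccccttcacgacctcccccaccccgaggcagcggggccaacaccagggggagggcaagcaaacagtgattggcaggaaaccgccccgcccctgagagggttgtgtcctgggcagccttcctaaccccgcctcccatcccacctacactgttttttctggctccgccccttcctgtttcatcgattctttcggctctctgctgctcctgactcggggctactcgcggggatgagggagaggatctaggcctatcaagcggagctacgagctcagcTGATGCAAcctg
Aqp8: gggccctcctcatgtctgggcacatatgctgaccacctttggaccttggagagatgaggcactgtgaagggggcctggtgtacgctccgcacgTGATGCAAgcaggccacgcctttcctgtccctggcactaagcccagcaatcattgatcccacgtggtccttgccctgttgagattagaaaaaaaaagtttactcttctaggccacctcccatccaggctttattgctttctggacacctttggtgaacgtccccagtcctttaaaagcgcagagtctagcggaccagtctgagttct
Cth, Phgdh, Psph, Asns and Ddit4 held no match in their windows, and Slc7a3 had no window in the table. Of the ATF4 targets tested, 5 of 22 with a promoter held the letters (22.7%), among them Nupr1 and Nars1, which fell, and Cars1, Herpud1 and Slc7a1, which did not pass.

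Stress and redox genes made up a further group of falls. The autophagy receptor Sqstm1, also a target of the redox factor NRF2, measured 10.05, 9.99 and 10.0 with vehicle and 9.08, 9.19 and 9.16 with rapamycin (1.83-fold, adjusted p = 0.00749). Its other 2 probes were at -0.53 and -0.21 and did not pass (adjusted p = 0.16 and 0.426), so the size of this fall rests on the brightest probe. The quinone reductase Nqo1, a standard NRF2 target, measured 10.44, 10.36 and 10.39 against 9.54, 9.63 and 9.65 (1.72-fold, adjusted p = 0.00816). Of 33 tested glutathione and NRF2 genes these 2 fell and 31 did not pass, with a median of -0.14 and Akr1b8 (-0.55), Gstp1 (-0.49) and Gclc (-0.45) next in order. Of 52 tested autophagy and lysosome genes only Sqstm1 passed, and the list had a median of 0.02, with Tpp1 (0.61), Gaa (0.6) and Map1lc3a (0.51) as its highest members, none of which passed. The letters TGACNNNGC of the antioxidant element were found in 5 of 23 downregulated and 5 of 18 upregulated promoters (21.7% and 27.8%) against 15.6% of tested genes, and neither Sqstm1 nor Nqo1 was among them.

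In the mTOR pathway itself 1 gene of 35 tested passed. This was Ddit4, known as REDD1, a stress-induced inhibitor of mTOR, which measured 7.1, 7.26 and 7.27 with vehicle and 6.37, 6.42 and 6.34 with rapamycin (1.78-fold lower, adjusted p = 0.00816). Transcripts of the kinase and its readouts lay near 0, with Mtor at -0.03 (SE 0.109), the substrate Eif4ebp1 at -0.09 (SE 0.117) and ribosomal protein S6, Rps6, at 0.11 (SE 0.119). Their vehicle and rapamycin arrays overlapped, and Mtor and Eif4ebp1 changed sign under a common median. The median of all tested probes stood there at 0.172, with Eif4ebp1 below it and Mtor just above. Akt1 was at 0.25 (SE 0.179) and the insulin receptor substrate Irs1 at 0.56 (adjusted p = 0.159).

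No gene of the glycolysis, ribosome and respiration lists passed, and among these lists glycolysis had the lowest median. None of 15 tested glycolytic genes passed, although 14 were negative, against 3052 of all 5889 tested genes, and the median was -0.22. Eno2 was at -0.4, Pfkp at -0.33 and Tpi1 at -0.28 (adjusted p = 0.139, 0.173 and 0.196). Phosphoglycerate kinase (Pgk1) measured 11.75, 11.87 and 11.88 with vehicle and 11.47, 11.56 and 11.66 with rapamycin, which did not overlap, at a log2 difference of -0.27 (adjusted p = 0.229). At an unadjusted p the same Pgk1 difference reached 0.0236 in limma. None of 56 ribosomal protein genes passed (median 0.07), nor of 29 translation factors (median 0), 40 ribosome biogenesis genes (median -0.06), 56 mitochondrial ribosomal proteins (median -0.1) or 53 oxidative phosphorylation genes (median -0.08). Outside these lists the rRNA methylase Dimt1 fell 1.48-fold (adjusted p = 0.0457). One probe of the respiratory assembly factor Higd2a fell 1.76-fold (adjusted p = 0.044), while its brighter probe was at 0 (SE 0.299), so the gene was left uncalled in the counts of lists, which used the brightest probe.

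Genes of cell division also lay mostly below 0. The spindle checkpoint gene Mad2l1 fell from 7.9, 7.78 and 7.78 to 7.19, 7.35 and 7.22 (1.48-fold, adjusted p = 0.0442) and was the 1 gene called among 36 tested G2, spindle and mitosis genes. Of these 36, 30 were negative, against 3052 of all 5889 tested genes, and the median was -0.22. The mitotic kinases Plk1 and Aurka were at -0.45 and -0.43 (adjusted p = 0.135 and 0.0887). S phase and DNA replication genes had a median of -0.04 over 43 tested, and G1 regulators 0.12 over 18, with no call in either list. Cyclin E (Ccne1) was at -0.21 (adjusted p = 0.481) and the inhibitor p27, Cdkn1b, at -0.1 (adjusted p = 0.71), with overlapping arrays in both. Under a common median they were at 0.02 and 0.11, still below the median of all tested probes, which stood there at 0.172.

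The other falls were spread over several functions. The cyclophilin Ppid fell 1.61-fold (11.58, 11.61 and 11.42 against 10.82, 10.92 and 10.81, adjusted p = 0.0208) and was the 1 call among 23 cytosolic and mitochondrial chaperones, and its dimmer probe was at -0.44 without passing. The stress-induced zinc finger gene Zfand2a fell 1.51-fold (adjusted p = 0.0442). The LIM protein Csrp2 (1.69-fold, adjusted p = 0.021), the keratin Krt15 (1.65-fold, adjusted p = 0.021) and the huntingtin-associated protein Hap1 (1.85-fold, adjusted p = 0.0181) fell as well. The glucocorticoid-activating enzyme Hsd11b1 fell 1.58-fold (adjusted p = 0.0334) and the sterol reductase Tm7sf2 1.54-fold (adjusted p = 0.0366), the 1 call among 15 tested cholesterol synthesis genes (median -0.11). Of 28 tested interferon response genes the inflammatory caspase Casp4 (1.6-fold, adjusted p = 0.0478) and Ifi27l2b (1.44-fold, adjusted p = 0.0473) fell, while the median was 0.04. Rom1, a photoreceptor membrane protein, Ascl2, a transcription factor of stem and trophoblast cells, and Aqp8 completed the falls with 1.55-fold, 1.49-fold and 1.45-fold (adjusted p = 0.0442, 0.0321 and 0.0442).

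**Figure D4:**
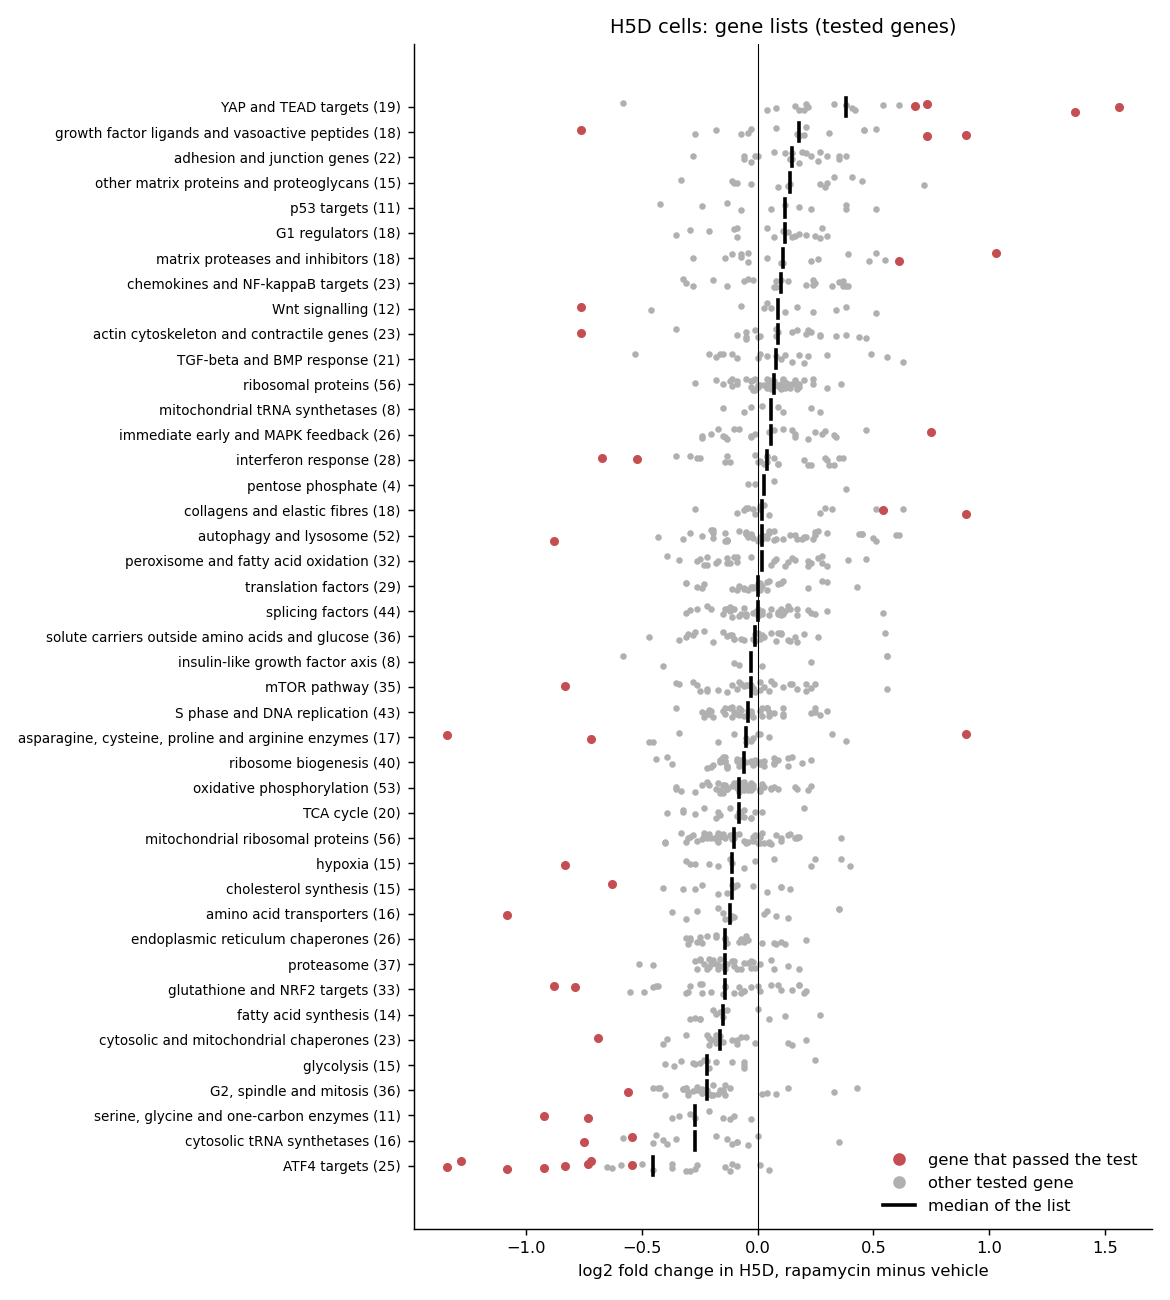
Each row is a gene list with the number of tested genes in brackets, each dot is the log2 fold change of 1 gene in H5D (rapamycin minus vehicle), red dots passed the test and the black line is the median. The ATF4 list has the lowest median (-0.45, 8 red dots) and the YAP and TEAD list the highest (0.38, 4 red dots), and a gene can stand in more than 1 list.

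A further list held genes of the proteins that the study assayed and genes that it took from array results. The latter were chosen in part on these arrays, so their direction here is not independent evidence. Ampd3, an AMP deaminase, measured 9.43, 9.16 and 9.27 with vehicle and 8.72, 8.73 and 8.76 with rapamycin (log2 fold change -0.55, adjusted p = 0.0531), and it passed without vehicle replicate 2. Ddit3 measured 8.95, 9.41 and 9.16 against 8.46, 8.47 and 8.69. Both were without overlap. The thrombin receptor F2r was at 0.33 (adjusted p = 0.127) and the ATP synthase subunit Atp5mc1 at -0.35 (adjusted p = 0.163). Of the 12 genes of this list on the array, Psph alone passed.

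The H5D response was then set against that of GN5, where 515 of 7449 tested probes passed (6.91%). Of the 57 H5D calls, 36 could be tested in GN5 and 16 passed there too, 14 of them in the same direction, which is 28.1% of the H5D calls and 3.11% of the GN5 calls. Probes undetected on all 6 GN5 arrays numbered 16 of the 57, among them Npy, Mmp3, Col15a1, Slc7a3, Wnt16, Asns and Krt15, so that no GN5 response could be measured for them. In the test of the difference between the lines 120 of 8539 probes passed (1.41%), and 25 of the 57 H5D calls were among them, a count in which the same H5D arrays enter both tests. Of the 25, 10 could be tested in GN5, and for the other 15 the test set an H5D change against signal not reliably above background in GN5.

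Among the H5D calls Ccn2 had the smallest adjusted p for the difference, with a log2 fold change of 1.56 in H5D and 0 in GN5 although it was detected on all 6 GN5 arrays (difference 1.56, SE 0.157, adjusted p = 0.000601). Its log2 level averaged 13.75 in both GN5 groups and 9.31 in H5D with vehicle, and the part of this gap in level in the difference was not tested. Pepd had 0.9 in H5D and 0 in GN5 (adjusted p = 0.0477 for the difference), and Hap1 had -0.89 against 0.35 (adjusted p = 0.00976). Falls that were smaller in H5D than in GN5 were those of Psph (-0.73 against -1.35, adjusted p = 0.0304) and Ifi27l2b (-0.52 against -1.29, adjusted p = 0.00958). Of these differences, those of Ccn2 and Hap1 passed under all 10 alternatives run for the difference, in which no GN5 array was left out. Hap1 lay near the limit of detection, averaging 5.65 in H5D with rapamycin and 5.64 in GN5 with vehicle. It was detected on 2 of 3 GN5 vehicle arrays, and its difference was -0.65 on the authors' normalised values. That of Pepd did not pass without a filter on dim probes (adjusted p = 0.107), with the replicate block (0.063) or in 5 of the 6 fits with an array left out. That of Psph did not pass with the block (0.121) or in 4 of those 6 fits (0.0502 to 0.0888), and that of Ifi27l2b did not pass with the block (0.063) or on the authors' normalised values (0.37, adjusted p = 0.0859). For Nupr1 (-1.28 against -1.67), Ddit4 (-0.83 against -1.56), Phgdh (-0.92 against -0.65), Yars1 (-0.75 against -0.79), Cav1 (1.37 against 0.5) and Edn1 (0.73 against 1.05) the difference did not pass (adjusted p = 0.288, 0.0616, 0.418, 0.932, 0.0561 and 0.351), which does not show that the lines responded alike.

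**Figure D5:**
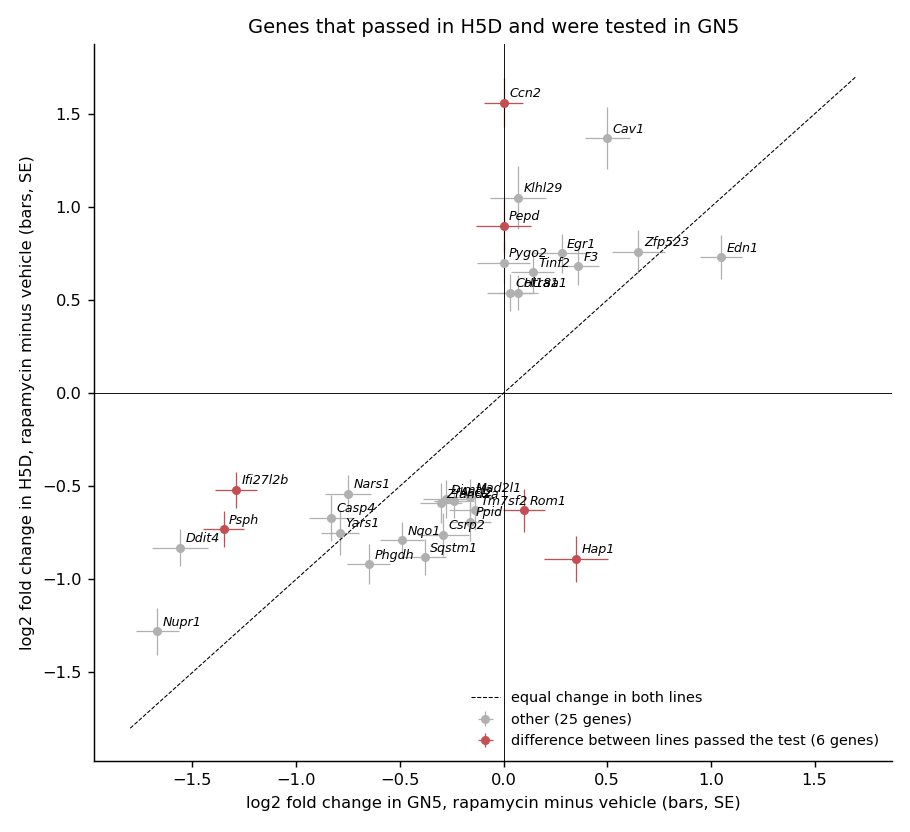
The 31 genes called in H5D that were tested in GN5 are placed by their log2 fold change in GN5 (horizontal) and in H5D (vertical), with SE bars, and the dashed line marks equal change. Red marks the 6 genes whose difference between the lines passed, among them Ccn2 on the vertical axis at 1.56.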

How the data were processed

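Total RNA of 6 H5D and 6 GN5 cultures was hybridised to Illumina RatRef-12 BeadChips. The deposited bead table held a scanner intensity and a detection p-value for each probe, per the file headers, neither background corrected nor normalised. The second deposited table held intensity values that the authors had quantile normalised in BeadStudio (Partek 6.3 was used downstream, per the submitters' processing notes), and it served as an alternative.

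For the reported comparisons, background was removed from the intensities with a normal-exponential model informed by the detection p-values (offset 16), and the values were quantile normalised over 12 arrays and log2 transformed (neqc, limma 3.58.1, R 4.3.3). A probe was tested if its detection p was at most 0.01 on all 3 arrays of a group. Rapamycin was compared with vehicle by lmFit and eBayes (two-sided), with Benjamini-Hochberg adjustment over all 7895 probes, called below 0.05. The difference between lines was an interaction contrast over 12 arrays. Errors are standard errors (SE), n = 3 per group. The number of arrays limits the precision. The fits were tested on simulated data.

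A platform annotation gave 1 symbol for 13793 probes and none for 8730, and 13752 were updated by Entrez identifier. The brightest tested probe stood for a gene in lists. Named genes were the 10 with the largest changes in each direction, up to 6 called members of each list, up to 3 members with the smallest p of lists without a call, genes from the study's assays and array results, and the cell type markers. Other genes were named after their values were seen. The members and lists were chosen with earlier results of these data known. Promoter sequences are from RefSeq (GRCr8), which held 41 of the 49 genes.

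Alternatives were the authors' values, neqc on 6 arrays, a common median, no background correction, no filter, detection on all 6 arrays, a fit over 12 arrays, array weights, a replicate block, the methods' t-test and leaving out each array. Chip or slide identifiers were not given in the sources used here, so no batch could be tested.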

Additional observations from a re-analysis of the deposited data

Results flagged for a closer look

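The interaction test over 12 arrays passed for 25 of the probes that passed in H5D, 19 with a gene symbol and 6 without. Only 10 of them could be tested in GN5, 6 with a symbol and 4 without. The replicate block kept 11 of the 25 past the threshold, fits with an array left out 15 to 21, a common median 17, no filter on dim probes 20 and the authors' normalised values 22. Values are the H5D log2 fold change minus that of GN5. Where the gene could be tested in both lines the differences were 1.56 for Ccn2, 0.9 for Pepd, 0.76 for Ifi27l2b, 0.63 for Psph, -0.74 for Rom1 and -1.23 for Hap1. Psph and Ifi27l2b fell in both lines, and their differences were among those that did not pass with the replicate block (adjusted p = 0.121 and 0.063). That of Rom1 did not pass with the block (0.0996) or under a common median (0.202). It also did not pass without H5D vehicle replicate 1 (0.0636), rapamycin replicate 1 (0.0636) or rapamycin replicate 2 (0.079).

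The other 13 genes were not tested in GN5, since they were not detected on all 3 arrays of either GN5 group. No GN5 response was measured for them. Their values include the scatter of GN5 signal not reliably above background and are not sizes of a difference in response. They exceed the H5D change itself for Pcp4, Mmp3, Mmp16, Gja5, Tnfsf12, Krt15 and Aqp8. The 13 genes were Pcp4 (1.27), Mmp3 (1.09), Mmp16 (0.89), Npy (0.87), Col15a1 (0.83), Gja5 (0.83) and Tnfsf12 (0.75) on the higher side and Cth (-1.03), Slc7a3 (-1.02), Krt15 (-0.78), Wnt16 (-0.76), Aqp8 (-0.69) and Asns (-0.63) on the lower side. Gja5 (adjusted p = 0.0488) and Pepd (0.0477) were the nearest to the threshold.

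Among probes without a gene symbol, ILMN_1370638 rose in H5D and fell in GN5 (0.75 and -0.58, a difference of 1.33, adjusted p = 0.00164), and ILMN_1355544 did the same (0.74 and -0.59, a difference of 1.32, adjusted p = 0.00189). These were the calls shared by both lines with opposite direction. The differences of the other 4 were 0.68 for ILMN_1353230 and -0.69 for ILMN_1374120, which were tested in GN5, and 0.86 for ILMN_1367877 and -0.68 for ILMN_1374825, which were not.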

How the results depend on the processing

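Against 57 calls (25 higher, 32 lower), the authors' normalised values gave 87 (46 higher), no background correction 92 (49 higher), a common median 164 (156 higher, 8 lower), no filter on dim probes 31 (12 higher, 19 lower), the fit over all 12 arrays 290 (162 higher, 128 lower) and array weights 715 (391 higher, 324 lower), where rapamycin replicate 2 had a weight of 4.15 and vehicle replicate 2 of 0.389. The methods' t-test at 1.2-fold gave 481 unadjusted and 6 adjusted. At any fold the adjusted t-test gave 0 higher and 6 lower. Leaving out an array gave 0 to 42 calls (0 to 21 higher, 0 to 21 lower). The cause was not tested. All 57 probes kept their direction wherever they were tested. Correlations of same-numbered arrays' deviations were 0.2, 0.01 and -0.37, and those of differently numbered arrays ranged from -0.48 to 0.45. Deviations from a mean of 3 arrays are tied to each other, so these values cannot settle whether same-numbered arrays belong together. The replicate block gave 15 calls (6 higher, 9 lower). The 120 differences between lines became 252 under a common median, 40 with the replicate block and 58 to 134 with an array left out. A common median turned 16 of 22 negative list medians positive, while the median of all tested probes moved to 0.172. Relative to that shift, 42 of the 43 lists kept the sign of their median. Ccne1 (0.02), Cdkn1b (0.11), Eif4ebp1 (0.06) and Mtor (0.19) also turned positive, and of these Mtor alone lay above 0.172. With an array left out Eif4ebp1 ranged from -0.18 to 0.01 (above 0 without vehicle replicate 2) and Mtor from -0.08 to 0.05 (above 0 without vehicle replicate 1 or rapamycin replicate 2), none of them called. Signal over background limits dim genes such as Slc7a3 and Tmem200a, which have bounds.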

Other observations

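Several groups not described above had no call but held genes whose rapamycin and vehicle arrays did not overlap. Over all tested probes the same held for 10.8% on the higher side and 12.3% on the lower side. In the insulin-like growth factor axis, the binding protein Igfbp7 measured 9.45, 9.57 and 9.24 with vehicle and 10.14, 9.87 and 9.94 with rapamycin (log2 fold change 0.56, adjusted p = 0.0801), while Igfbp6 and Igfbp3 lay at -0.41 and -0.58 (adjusted p = 0.0875 and 0.0985). The list of 8 tested genes thus had values of both signs and a median of -0.03. The BMP-responsive inhibitor Id2 was at -0.53 (adjusted p = 0.0646) and the TGF-beta feedback gene Pmepa1 at 0.56 (adjusted p = 0.114). The myo-inositol transporter Slc5a3 was at -0.47 (adjusted p = 0.0624).

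Among the epithelial genes present in these cells, Krt8 was higher by 0.43 and Krt7 by 0.44 (adjusted p = 0.0823 and 0.0845), each with 3 rapamycin arrays above 3 vehicle arrays, while Krt19 was at -0.18 with overlap. Transferrin, the 1 detected hepatocyte marker, was at 0.55 (adjusted p = 0.0852). The proteasome subunits Psmd5 and Psmd9 were at -0.45 and -0.51 (adjusted p = 0.0821 and 0.0854). Of the 37 tested genes of their list 32 were negative (median -0.14), against 3052 of all 5889 tested genes. The chemokines Cxcl11 and Ccl7 were at 0.39 and 0.38 (adjusted p = 0.109 and 0.117), with no overlap, and 23 tested chemokine and NF-kappaB genes had a median of 0.1. None of these passed the test.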
